A study of Homo sapiens with 2 samples.

Results

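To examine how human BCP-ALL cells express the machinery that builds cholesterol and fatty acids, 29 genes of these pathways were followed in the RNA sequencing data of REH and 697. They were taken by gene symbol from a fixed list and mapped to Ensembl gene IDs. All 29 were found among the 57773 gene IDs of the files, and all 29 had at least 10 reads in a library, the minimum for a gene to be compared. REH is an established BCP-ALL line with the ETV6/RUNX1 fusion, whose remaining ETV6 allele is deleted. 697 is an established BCP-ALL line without that fusion. Both lines were kept in RPMI medium with fetal bovine serum, neither received a treatment, and each was sequenced as 1 library of total RNA. The lines differ in far more than the fusion, so a difference between them cannot be tied to it.

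Cholesterol is built from acetyl-CoA. The mevalonate pathway first makes isoprenoid units, which are joined to squalene, and squalene is then closed to lanosterol and trimmed to cholesterol in the endoplasmic reticulum. Most of these enzymes, and those of fatty acid synthesis, are switched on by the SREBP transcription factors, which SCAP escorts out of the endoplasmic reticulum when sterols are scarce and which the INSIG proteins hold back when sterols are plentiful. Growing lymphoblasts need both kinds of lipid for new membranes and can also take up cholesterol from serum lipoproteins.

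The REH library held 45188375 gene reads and the 697 library 41097497. Levels are given as CPM, counts scaled to a common total with TMM factors (edgeR). Ratios are log2 values of REH over 697, with 0.5 reads added to each count. The interval beside a ratio is its exact 95% counting interval. It covers counting error only, because PCR duplicates are not independent molecules and the spread between cultures is unknown without replicates. No test between the lines was possible, and the ratios describe this pair of libraries. At this depth 3 reads correspond to 0.0664 CPM in REH and 0.0730 CPM in 697 before scaling. Of 9 markers of B-cell precursors, all had at least 10 reads in 697 and 8 did in REH, where VPREB1 had 3 reads. Their summed level was 5355 CPM in REH and 7504 CPM in 697. The 5 T-cell markers summed to 0.935 CPM in REH and 0.0271 CPM in 697. CD3E, with 45 reads in REH and 0 in 697, made up most of the REH sum, and CD3D was at 0 reads in both libraries. The 3 liver markers summed to 1.17 and 0.162 CPM. The 5 myeloid markers summed to 253 CPM in REH and 2.25 CPM in 697, almost wholly through MPO in REH, with 12643 reads there and 12 in 697. The part of MPO and the other marker differences in the results was not tested.

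Across the 29 genes the ratios centred near 0, with sterol enzymes mostly above it and fatty acid enzymes mostly below it. The median log2 ratio was 0.10, with a range of -1.39 to 1.72, beside 0.05 for all 19145 genes tested and 0.02 for the 13489 protein-coding ones. A gene was called when its level differed 2-fold or more between the lines. This was reached by CYP51A1, TM7SF2 and LSS in the direction of REH and by SCD, STARD4 and SCAP in the direction of 697. These 6 genes make up 20.7% of the members, beside 39.8% of all genes tested (22.4% higher in REH and 17.4% higher in 697) and 35% of protein-coding genes (19.5% and 15.5%). No member reached a 4-fold difference, which 20.7% of all genes tested did. The counting interval lay above 0 for 14 members, below 0 for 12, and held 0 for 3. Among the 13489 protein-coding genes it lay above 0 for 5813, below 0 for 5736, and held 0 for 1940. Most of the 29 ratios were therefore small. They were larger than counting error, as were those of most protein-coding genes.

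**Figure D1:**
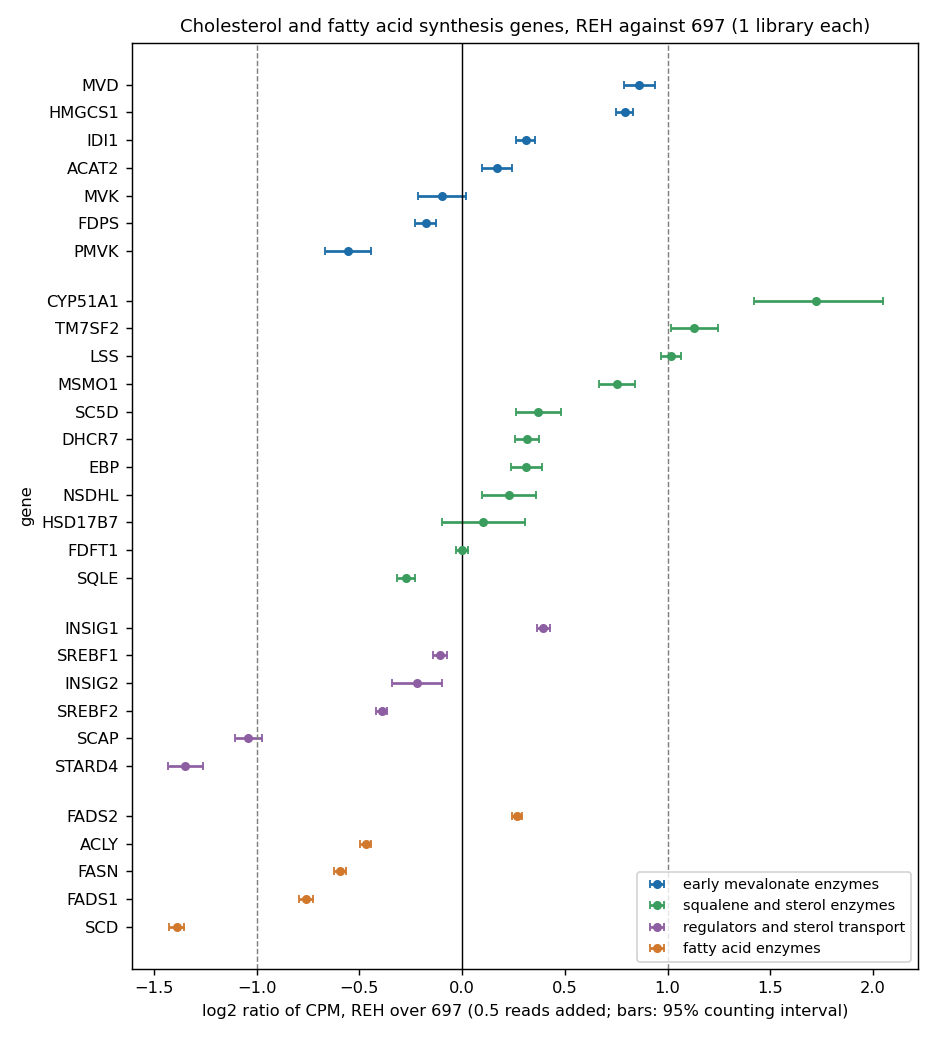
Log2 ratio of CPM in REH over 697 for each of the 29 genes (x axis), grouped by role (y axis and colour), with bars for the 95% counting interval and dashed lines at the 2-fold threshold. The 11 squalene and sterol enzymes lie mostly to the right of 0, and 4 of the 5 fatty acid enzymes lie to the left.

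The zero point of these ratios depends on the scaling, which matters for genes that differ so little. With unscaled totals the median of all genes was 0.36 and with totals that omit mitochondrial genes it was 0.31. Mitochondrial genes took 3.11% of gene reads in REH and 6.13% in 697. Relative to the median protein-coding gene, the members' median lay 0.08 higher under TMM, DESeq2 and unscaled totals alike, with 15 of 29 members above it. That difference was 0.012 with the strand columns summed and -0.0060 in the first strand column, so the sign for the whole set depends on the column. The order of the members is also free of the scaling. With unscaled totals HMGCS1, MSMO1 and MVD passed the threshold as well (6 genes higher in REH), and SCAP no longer did (2 higher in 697). With DESeq2 size factors LSS fell just short of it at 0.99. The sign of FDFT1, FDPS, INSIG2, MVK, SQLE and SREBF1 changed in at least 1 of 10 alternatives, whereas 23 members kept theirs in all 10.

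Promoters were examined because members of a pathway that is switched on together may share sequence features. RefSeq promoters (GRCh38.p14) were found for 25 of the 29 genes, and the 250 bases before each start were searched on both strands. Where a gene had several promoters, as 7 members did, the highest count among them was taken. The NF-Y motif CCAAT, bound by a factor known to work beside SREBP, occurred in 18 of 25 members (72%), against 37.0% of 27305 genes with a promoter and 41.3% of the protein-coding genes tested here. It occurred at least 2 times in 12 of the 25 members, against 11.5% of all genes with a promoter. Of the 15 sterol pathway enzymes matched, 13 held it, and of the 10 other members 5 did. The Sp1 motif GGGCGG was held by 24 of 25 members, all but NSDHL, against 46.2% of all genes and 72.8% of the tested coding genes. The E-box CACGTG occurred in INSIG1, SC5D and SCAP (12%, against 7.73% of all genes and 10.9% of the tested coding genes). The core TCACNCCAC of the sterol response element occurred in SREBF2 alone (4%, against 1.09% of all genes and 1.17% of the tested coding genes). This strict spelling misses looser elements, and a match is a description, not a bound site. Of the 6 genes that differed 2-fold, TM7SF2, LSS, SCD and STARD4 held CCAAT in this window, and CYP51A1 and SCAP did not.

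The SREBF2 site and 4 promoters with several CCAAT matches are shown because the motif is found in genes that differed in either direction, MVD and MSMO1 with higher levels in REH and SCD and STARD4 with higher levels in 697. Capitals mark the sterol response element core or CCAAT in either orientation. Annotated exons were trimmed off the 4 promoters, whereas the short SREBF2 stretch was not checked for them. The stretches are SREBF2 at chr22:41832962-41832990 (plus strand), MVD at chr16:88663162-88663297 (minus), MSMO1 at chr4:165327419-165327666 (plus), SCD at chr10:100346983-100347232 (plus) and STARD4 at chr5:111512591-111512785 (minus), each read 5′ to 3′ on the strand of the gene.
SREBF2: tgacgcgccaTCACCCCACgcaccgcttc
MVD: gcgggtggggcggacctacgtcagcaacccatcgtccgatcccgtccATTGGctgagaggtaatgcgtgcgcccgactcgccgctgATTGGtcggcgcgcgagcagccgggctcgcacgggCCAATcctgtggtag
MSMO1: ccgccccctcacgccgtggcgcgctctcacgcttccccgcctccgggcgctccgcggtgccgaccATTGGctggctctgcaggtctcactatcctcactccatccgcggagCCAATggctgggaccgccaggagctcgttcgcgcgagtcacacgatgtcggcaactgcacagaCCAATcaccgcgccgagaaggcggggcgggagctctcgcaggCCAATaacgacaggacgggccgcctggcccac
SCD: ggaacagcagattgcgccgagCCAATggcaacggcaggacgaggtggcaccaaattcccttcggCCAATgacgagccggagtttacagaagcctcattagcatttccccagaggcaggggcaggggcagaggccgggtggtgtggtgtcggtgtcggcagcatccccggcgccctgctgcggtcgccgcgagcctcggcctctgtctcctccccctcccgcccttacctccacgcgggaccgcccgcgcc
STARD4: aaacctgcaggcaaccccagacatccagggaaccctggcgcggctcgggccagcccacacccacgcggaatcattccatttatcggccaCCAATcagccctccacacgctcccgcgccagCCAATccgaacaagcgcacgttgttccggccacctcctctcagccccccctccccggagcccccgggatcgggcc

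The 7 enzymes of the early mevalonate pathway had a median log2 ratio of 0.17. None reached a 2-fold difference, which 39.8% of all genes tested did. The best separated was MVD (ENSG00000167508, chromosome 16), which makes isopentenyl diphosphate by decarboxylation, at 95.9 CPM in REH against 52.8 CPM in 697 (log2 ratio 0.86, with an interval of 0.79 to 0.94). The 26 tested genes within 1 Mb of MVD had the same median ratio of 0.86, and the part of this regional difference was not tested. HMGCS1, the synthase that commits acetyl units to the pathway, reached 299.6 CPM and 173 CPM (0.79, 0.75 to 0.83), with a neighbour median of -0.63. The isomerase IDI1 stood at 213 and 172 CPM (0.31, 0.26 to 0.35), and the cytosolic thiolase ACAT2, which acts first, at 76.1 and 67.7 CPM (0.17, 0.09 to 0.24). These 4 enzymes had intervals above 0, and the other 3 did not. MVK had 26.5 CPM in REH and 28.3 CPM in 697, with an interval that held 0 (-0.22 to 0.02). PMVK, the next kinase, had 25.7 and 37.7 CPM (-0.55, -0.67 to -0.44). FDPS, which joins the units to farnesyl diphosphate, had 135 and 153 CPM (-0.18, -0.23 to -0.13), a sign that turned to 0.13 with unscaled totals.

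Several of these values rest on part of the reads. A read that falls where genes of opposite strands overlap is left out of the counts, and it may come from either gene. Such reads made up 40.9% of those over FDPS in REH and 40.7% in 697, with RUSC1-AS1 on the other strand. For ACAT2, whose end overlaps TCP1, the shares were 34.5% and 40.4%. For HMGCS1 they were 17.9% and 19.3%, and for IDI1 12.3% and 13.5%. The ratio of ACAT2 was 0.017 in the first strand column and 0.17 with strands pooled. It is the median of the 7 enzymes, which became 0.044 with the strand columns summed. Without a strand preference, that sum credits each overlap read to both genes. TCP1 had 214 CPM in REH and 292 CPM in 697 (-0.45), and the gene of origin of these reads is not known. FDPS has 8 annotated pseudogenes in the files, which together had few uniquely placed reads. FDPSP8 had the most, with 7 in REH and 15 in 697.

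The 11 enzymes from squalene to cholesterol had the highest median log2 ratio of the 4 role groups, at 0.32. Of the 11, 9 were above 0, beside 52.1% of all genes tested. A 2-fold difference was found for 3 of them (27.3%), beside 39.8% of all genes tested. CYP51A1 (ENSG00000001630, chromosome 7, 92084987 to 92134803, GRCh38), the demethylase that acts on lanosterol, had 473 reads or 9.41 CPM in REH and 105 reads or 2.84 CPM in 697 (1.72, 1.42 to 2.05). TM7SF2 (ENSG00000149809, chromosome 11, 65111845 to 65116384), the reductase of the following step, had 49.9 and 22.8 CPM (1.13, 1.02 to 1.24). LSS (ENSG00000160285, chromosome 21, 46188141 to 46228824), which closes the squalene epoxide to lanosterol, had 244 and 121 CPM (1.02, 0.97 to 1.07). LBR, a lamin receptor that carries out the same reduction as TM7SF2 and was named after its values were seen, had the higher level of the pair and the opposite direction, with 294 and 522 CPM (-0.83, -0.86 to -0.80). MSMO1, an oxidase of the later demethylation, had 68.3 and 40.5 CPM (0.75, 0.66 to 0.84). The tested genes within 1 Mb had a median ratio of 0.17 for CYP51A1 and 0.16 for TM7SF2. For LSS it was 0.67 over 13 genes, and for MSMO1 it was 0.77 over 3 genes. The part of these regional differences in the ratios of LSS and MSMO1 was not tested.

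The remaining enzymes of the group lay closer together. Ratios between 0.23 and 0.37 were found for NSDHL (24.5 CPM in REH, 20.9 CPM in 697), EBP (73.6 and 59.2), DHCR7 (121 and 96.9) and SC5D (37.6 and 29.1), which remove the extra methyl groups and set the bonds of the sterol ring. HSD17B7, the ketosteroid reductase that works with NSDHL, had 10.1 and 9.36 CPM with an interval of -0.10 to 0.31. Its pseudogene HSD17B7P2 had 242 reads in REH and 280 in 697, so its own 506 and 346 reads are uncertain. The tested genes within 1 Mb had a median ratio of 1.33 for NSDHL, the highest such median of the 29 genes. It was 0.58 for DHCR7, 0.58 for HSD17B7, 0.45 for SC5D and 0.10 for EBP. Across the 29 genes, 12 lay above the median of their neighbours. The part of regional differences in these ratios was not tested. The enzymes that make and oxidise squalene did not share the lean to REH. Squalene synthase FDFT1 had 21048 reads in REH and 15496 in 697, which gave 419 CPM in both. SQLE, the squalene epoxidase and a control point of the pathway, had 172 and 208 CPM (-0.27, -0.32 to -0.23). With unscaled totals this ratio was 0.034. The tested genes within 1 Mb had a median ratio of -0.72 for FDFT1 (8 genes) and -0.72 for SQLE (10 genes). The part of these regional differences in the ratios of FDFT1 and SQLE was not tested.

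CYP51A1 stood out by its level as well. Per kb of summed exon it had 2.26 CPM in REH and 0.681 CPM in 697, the lowest of the 29 genes in 697 and the second lowest in REH, while its neighbours in the pathway LSS (33.7 and 16.7) and MSMO1 (23.9 and 14.2) were many times higher. In GENCODE 44, 68.2% of its exon bases lie in a further gene model on the same strand, whose ID is not among those counted, and AKAP9 overlaps its 3′ end on the opposite strand with 7233 reads in REH and 30341 in 697. How the annotation used for counting treated this locus is not known, and its part in the low count was not tested.

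The regulators leaned the other way, with a median log2 ratio of -0.31. Of the 6 genes, 5 were below 0, beside 9171 of all 19145 genes tested. Unscaled totals brought the median of the regulators to 0.0017. SREBF2, which encodes the SREBP devoted mainly to sterol genes, had 481 CPM in REH and 631 CPM in 697 (-0.39, -0.42 to -0.37). SREBF1, which drives mainly fatty acid genes, had 321 and 346 CPM (-0.11, -0.14 to -0.07). SCAP (ENSG00000114650, chromosome 3, 47413681 to 47477126) had 62.0 and 127 CPM (-1.04, -1.11 to -0.97) and so was 2.06-fold higher in 697. The 20 protein-coding genes tested within 1 Mb of SCAP had a median ratio of -0.83, the lowest such median of the 29 genes. The part of this regional difference in the SCAP value was not tested.

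INSIG1 was the exception among the regulators. Itself a target of SREBP, it had 404 CPM in REH and 307 CPM in 697 (0.39, 0.36 to 0.43). Its paralog INSIG2 had 1206 reads in REH and 1032 in 697 (-0.22, -0.34 to -0.10). Per kb, INSIG1 was 18.2 times INSIG2 in REH and 11.9 times in 697, a change of 0.61 in the log2 ratio between the paralogs (interval 0.49 to 0.74). This comparison is made within each library and needs no scaling. SREBF1 per kb was 0.654 of SREBF2 in REH and 0.537 in 697 (difference 0.28, 0.24 to 0.33). STARD4 (ENSG00000164211, chromosome 5, 111496033 to 111512590), a carrier of sterols between membranes, had 33.4 and 85.1 CPM (-1.35, -1.43 to -1.26). It was 2.54-fold higher in 697, and all 5 tested genes within 1 Mb had higher ratios than STARD4.

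The 5 fatty acid enzymes had a median log2 ratio of -0.60. Under TMM 4 of 5 were below 0, beside 9171 of all 19145 genes tested. Only SCD (20% of the 5) differed 2-fold, beside 39.8% of all genes tested. The median of the 5 stayed below 0 with unscaled totals, at -0.29. SCD (ENSG00000099194, chromosome 10, 100347233 to 100364826), the desaturase that makes monounsaturated fatty acids, had 177 CPM in REH and 464 CPM in 697 (-1.39, -1.43 to -1.35), which was 2.62-fold higher in 697. None of the 25 tested genes within 1 Mb had a ratio as low, and their median was 0.19. ACLY, which supplies cytosolic acetyl-CoA from citrate, had 439 and 607 CPM (-0.47, -0.50 to -0.44). Fatty acid synthase FASN had 364 and 551 CPM (-0.60, -0.62 to -0.57). The acetyl-CoA that ACLY supplies also feeds the sterol branch.

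The desaturases of polyunsaturated fatty acids parted within 1 locus. FADS1 and FADS2, which act in the same chain of reactions, lie beside each other on chromosome 11 with FADS3. FADS1 had 272 CPM in REH and 461 CPM in 697 (-0.76, -0.79 to -0.73). FADS2 had 669.6 and 557 CPM (0.27, 0.24 to 0.29). FADS3, a relative that is not among the 29, had 128 and 34.1 CPM (1.91), so the 3 genes ran from lower to 3.77-fold higher in REH. The ratio of FADS2 to FADS1 per kb was 2.38 in REH and 1.17 in 697, a log2 difference of 1.03 (0.98 to 1.07) that no scaling can alter. FADS1 and FADS2 overlap on opposite strands, and reads there, which may come from either gene, were left out. They made up 15.8% of the reads over FADS1 in REH and 9.63% in 697. With the strand columns the ratio of FADS1 was between -0.66 and -0.62. That of FADS2 was 0.29 in the first strand column and 0.25 in the other. The difference between FADS2 and FADS1 was thus smaller there, so it depends on the counting column though not on scaling. FEN1, a DNA repair gene that shares exon bases with FADS2 on the same strand, had 108 and 150 CPM (-0.47).

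**Figure D2:**
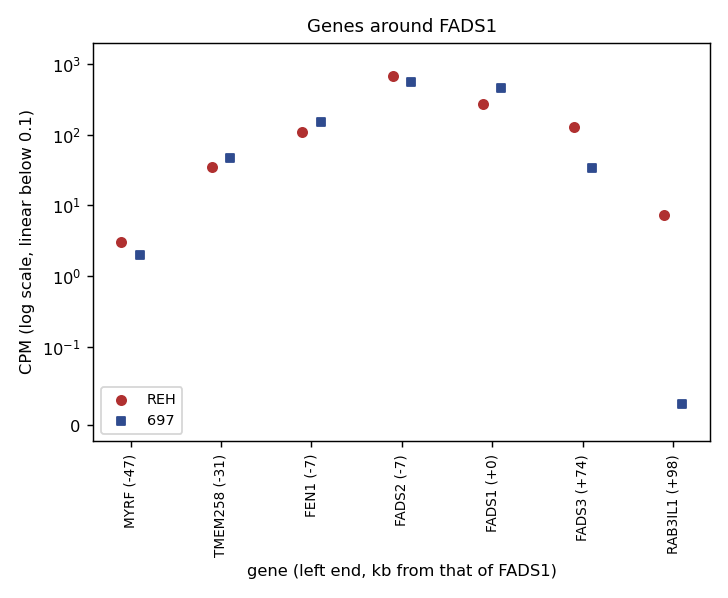
CPM in REH (circles) and 697 (squares) on a log axis that is linear below 0.1, for tested protein-coding genes around FADS1, ordered by position. The value of FADS1 is larger in 697, and those of FADS2 and FADS3 are larger in REH.

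Levels of different genes were compared per kb of exon, within each library. The members were abundant, with a median of 28.8 CPM per kb in REH and 26.1 in 697 against 5.10 and 5.12 for tested protein-coding genes, and 25 of the 29 were above that median in each line. INSIG1 led in REH at 111 CPM per kb, followed by ACLY (84.2) and FDFT1 (82.4). In 697 the order was ACLY (117), SCD (88.4) and INSIG1 (84.2). SCD stood 13th in REH (33.7 CPM per kb), whereas SREBF2 was 5th in both. At the other end were HSD17B7, CYP51A1, MVK and SC5D, between 2.10 and 3.74 in REH and between 0.681 and 3.14 in 697. Neighbours in this order cannot be told apart without replicates, and summed exon length counts exons that these cells may not use. Together the 29 genes took 0.595% of gene reads in REH and 0.528% in 697, whereas after TMM scaling their summed level was 5348 CPM in REH and 5878 CPM in 697, so the order of the totals depends on the scaling.

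**Figure D3:**
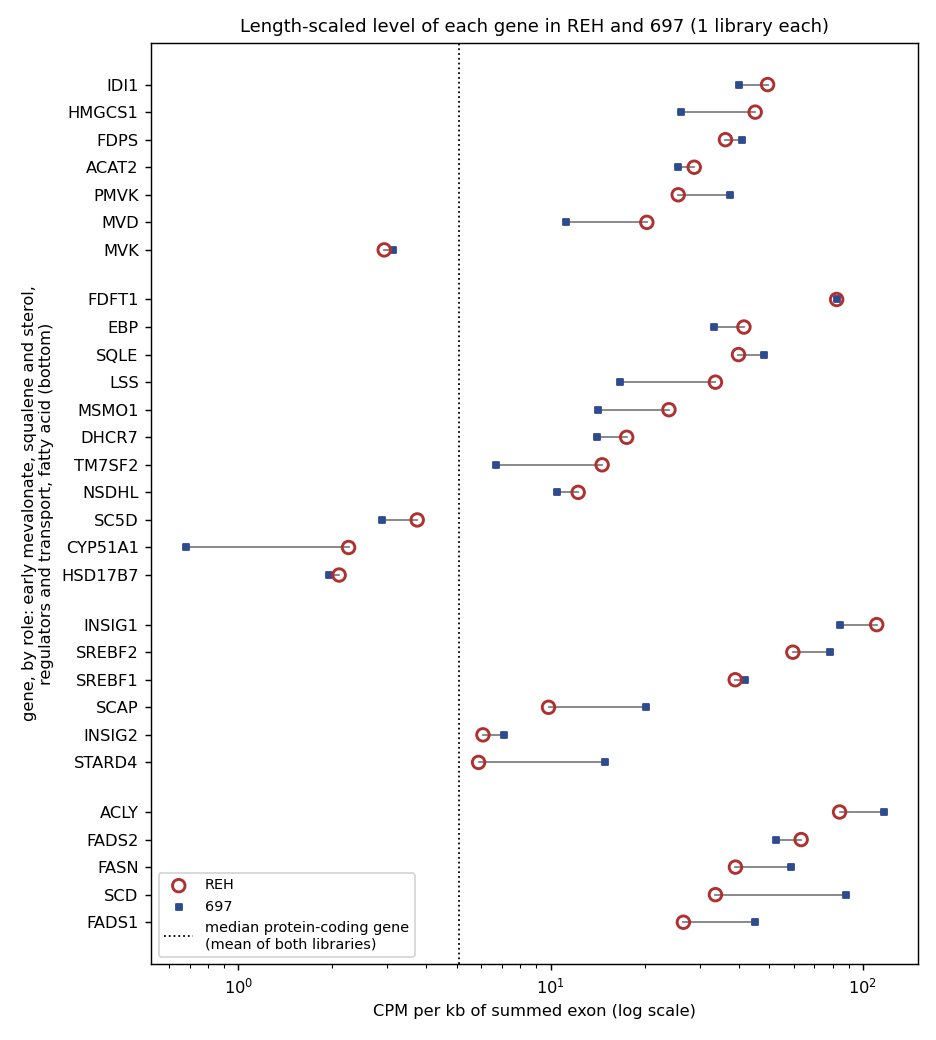
CPM per kb of summed exon (log x axis) in REH (open circles) and 697 (squares) for each gene, grouped by role, with a dotted line at the level of the median protein-coding gene. The points of FDFT1 coincide, and CYP51A1, SCD and STARD4 are among the most widely separated.

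To see whether genes outside the list followed the same division, 4 lists of other lipid genes were examined. Of 58 such genes, 53 were tested, and 7 were at least 2-fold higher in REH and 8 in 697. These 15 genes are 28.3% of those tested, beside 39.8% of all genes and 35% of protein-coding genes. Among 8 other sterol and isoprenoid enzymes the median log2 ratio was -0.44, with 3 genes above 0 and 5 below, and 1 gene past the threshold. This median was -0.13 with unscaled totals, -0.046 in the first strand column and -0.14 with the strand columns summed. Under TMM it lies between GGPS1 (-0.25) and FAXDC2 (-0.64), both named after their values were seen. FAXDC2 had only 63 reads in REH and 72 in 697. Reads left out because of an overlap with another gene made up 78.2% and 67.6% of those over FAXDC2. ACAT1, the mitochondrial thiolase, had 33.7 and 107 CPM (-1.66).

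Other fatty acid enzymes split in both directions, with a median of 0.01 over 21 tested of 26 listed. ACACA, the main carboxylase, was not matched to an ID of the files and is not analysed here. Higher in REH were ELOVL7 (3.02 CPM in REH, 0.379 CPM in 697, log2 ratio 2.95), the carboxylase ACACB (9.49 and 1.41, 2.74) and FADS3. By number, 5 were higher in REH and 4 in 697, a share of 42.9% that is close to the 39.8% of all genes. The other genes past the threshold, named after their values were seen, were OXSM and ACSS2 in REH and ELOVL2, ELOVL5 and ELOVL6 in 697. OXSM had 986 counted reads in REH and 300 in 697 (1.27). Reads left out because of an overlap with another gene made up 17.49% of those over OXSM in REH and 44.03% in 697. The counts of genes past the threshold that include OXSM therefore rest on part of its reads. The part of the omitted reads in its ratio was not tested. Higher in 697 by the most was ACSL1, a fatty acid activating enzyme, with 8.87 and 53.3 CPM (-2.59). The elongases ELOVL6 (22.3 and 80.6 CPM, -1.86) and ELOVL5 (199 and 711 CPM, -1.83), which lengthen fatty acids, had higher values in 697, and ELOVL7 of the same family had its higher value in REH.

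Among 9 genes of SREBP processing and endoplasmic reticulum degradation the median was -0.13. ERLIN1, which takes part in sterol-dependent degradation, was higher in 697 (46.2 and 109 CPM, -1.24), and the ubiquitin ligase RNF139 lay at the threshold (33.4 and 66.9 CPM). The proteases MBTPS1 (197 and 161 CPM) and MBTPS2 (24.2 and 31.6 CPM), which release the active SREBP and were named after their values were seen, did not reach 2-fold. Among 15 genes of uptake, storage and efflux the median was -0.07. The sterol exporter ABCG1 had 54.2 CPM in REH and 4.44 CPM in 697 (3.60, 3.38 to 3.85), and the lipoprotein receptor VLDLR had 1.17 and 92.8 CPM (-6.29, -6.70 to -5.93). LRP8, a receptor of the same family, was higher in REH (1.41).

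**Figure D4:**
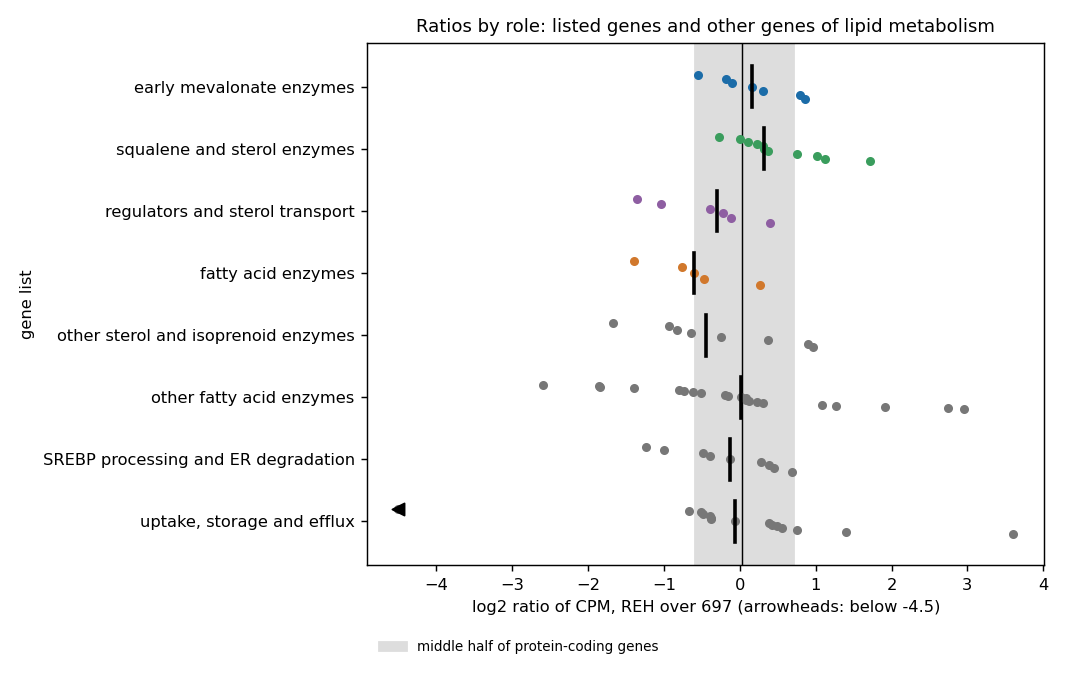
Log2 ratio of CPM, REH over 697, of each tested gene (points) in the 4 role groups of the 29 genes and in the 4 lists of other lipid genes, with a black bar at each list's median and grey for the interquartile range of protein-coding genes. VLDLR lies below the axis range (arrowhead), and the medians run from 0.32 for squalene and sterol enzymes to -0.60 for the fatty acid enzymes.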

How the data were processed

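The authors deposited raw read counts per gene, 1 file per line, with reads on either strand and on each strand in 3 columns. Per the study's methods the libraries were poly(A)-purified TruSeq libraries aligned to hg38 with STAR, whereas the labels describe ribodepleted stranded libraries and the processing notes name hg19. The annotation release is not given in the sources used here. Reads on either strand were used, since 50.1% of strand-assigned reads in REH and 50.2% in 697 were on the first strand. Multimapping reads (10.8% and 15.4%) and reads shared by genes (4.58% and 4.41%) are not in the gene counts. IDs were matched to GENCODE 44 (51996 of 57773).

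Totals were scaled by TMM (edgeR 4.0.16, R 4.3.3), with factors of 1.11 for REH and 0.899 for 697, over genes that reached 10 reads in either library. Intervals are exact Clopper-Pearson intervals of the share of reads from REH, except those between paralogs, which use a normal approximation on the log scale. Neighbours are tested protein-coding genes whose start coordinate lies within 1 Mb of the member's. Exon overlaps were taken from GENCODE 44. On a simulated pair (18340 genes) with counting error alone, all (100%) of the genes with a set change were recovered. These changes exceeded the threshold and were set on well-read genes only, so the recovery was fixed by the design. Among well-read genes 95.6% of intervals held the true ratio, and 293 unchanged genes passed the 2-fold threshold. The simulation held no spread between cultures. The members and lists were chosen with earlier results of these data known. Named outside the 29 were up to 4 genes of each list past the threshold with at least 100 reads, unless stated. Alternatives were DESeq2 1.42.0 size factors, unscaled totals, totals without mitochondrial genes, TMM over protein-coding genes, minimums of 1 and 50 reads, 5 reads added, a 4-fold threshold, each strand column and, added after seeing the data, their sum. A planned comparison of paralog proteins was not made. A gene of the lists of other lipid genes is not reported here.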

Additional observations from a re-analysis of the deposited data

How the results depend on the processing

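No paired analysis was possible because a single library was made from REH and from 697, and no replicate could be left out. With unscaled totals the median log2 ratio was 0.41 for the 29 genes, 0.48 for early mevalonate enzymes, 0.62 for squalene and sterol enzymes, 0.0017 for regulators, -0.29 for fatty acid enzymes, 0.32 for other fatty acid enzymes, 0.18 for SREBP processing and 0.24 for uptake, storage and efflux, and 6 members were 2-fold higher in REH. Without mitochondrial genes in the totals these medians were 0.37, 0.43, 0.58, -0.044, -0.33, 0.27, 0.13 and 0.20, again with 6 members. These shifts follow from moving every ratio by the same amount. The median of other sterol and isoprenoid enzymes was -0.13 with unscaled totals, -0.046 in the first strand column and -0.14 in the sum of the strand columns. The early mevalonate median was 0.017 and 0.089 in the strand columns and 0.044 in their sum, and the fatty acid median was -0.55 in the first strand column. No member (0 in either direction) reached 4-fold, against 2396 genes higher in REH and 1560 in 697. With a minimum of 1 read 9320 and 7064 genes passed the 2-fold threshold, and with 50 reads 2754 were higher in REH, since the number of genes tested changed. The members had at least 105 reads in each library, yet the counting interval held 0 for 3 of them. Without replicates no ratio carries an error beyond counting.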
